A study of Mus musculus with 12 samples.

Results

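The replication-dependent histone genes of cultured mouse cardiac fibroblast-like colony-forming cells were followed over 12 arrays in 4 groups of 3. The members were the array features (probe sets, groups of probes summarised to 1 value) with at least 1 platform gene symbol beginning Hist1h, Hist2h, Hist3h, Hist4h, H2ac, H2bc, H3c or H4c and then a digit, which 48 of the 28853 probe sets met. Of these, 22 carried a single gene symbol and 26 carried several, most of them naming near-identical histone copies; those 26 are given apart. The cells were cardiac colony forming units, fibroblast type (cCFU-F), sorted as SCA1+PDGFRα+CD31- from hearts of male C57BL/6 mice aged 12 weeks and grown as bulk cultures at passage P0. Cells were given 50 ng/ml of PDGF-AB, 10 uM of AG1296 or 1 uM of AG1296, or were left untreated, with 3 arrays for each. PDGF-AB is a ligand of the PDGF receptors and AG1296 is a small-molecule inhibitor of those receptor tyrosine kinases that also acts on other kinases. The labels give neither the vehicle nor the length of treatment, and they do not say whether arrays of a group came from separate cultures or animals, so each p-value reflects only array-to-array spread, which may be technical.

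Replication-dependent histone genes encode the core histones H2A, H2B, H3 and H4, around which newly copied DNA is wrapped. Their mRNAs are made mainly in S phase and most end in a stem-loop in place of a poly(A) tail. The stem-loop is bound by SLBP, transcription of the clusters depends on NPAT downstream of cyclin E and CDK2, and the mRNAs are degraded when DNA synthesis stops. Many identical or nearly identical copies lie in clusters, so a level belongs to a gene only as far as its probes are specific. Of the single-symbol members, 9 were H2B, 6 H4, 4 H2A and 3 H3 genes; 18 lie on chromosome 13, in the large cluster, and 4 on chromosome 3. Among them H2ac1 and H2bc1 encode the H2A and H2B forms known from testis, and H2bc21 encodes the H2B form known from olfactory neurons.

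RefSeq promoters (GRCm38.p6, 250 bases before to 50 after the annotated start) were at hand for 18 of the 22 single-symbol members, and the 250 bases before the start were searched on both strands for 4 motifs. The octamer ATTTGCAT, the OCT1 motif known from H2B promoters, stood in 5 of 7 H2B promoters and 3 of 4 H2A promoters, and in none of 2 H3 and 5 H4 promoters, against 1.6% of all 32851 promoters of the table. CCAAT, a box bound by NF-Y, stood in 7 of 7 H2B, 4 of 4 H2A, 1 of 2 H3 and 2 of 5 H4 promoters, against 33.8% of all promoters. TATAAA stood in 11 of the 18, against 12.4% of all, and the E2F-type letters TTTCGCGC or TTTGGCGC or TTTCCCGC in 1 of 18, against 1.53%. No 2 different motifs overlapped in these promoters. Among all genes that meet the naming rule, the octamer stood in 7 of 15 H2B and 6 of 17 H2A promoters. It stood in 0 of 10 H3 and 0 of 11 H4 promoters. Of their 53 promoters 43 held CCAAT, 24 TATAAA and 8 the E2F-type letters. The 150 bases before the start are printed for the 4 H2B members that fell with AG1296 at 1 uM and hold the octamer, for H2bc9 as an H2B member without it, and for H4c4 and H4c6 as H4 members; octamer, CCAAT and TATAAA letters on either strand are in capitals.
H2bc18, chr3:96269550-96269699, + strand: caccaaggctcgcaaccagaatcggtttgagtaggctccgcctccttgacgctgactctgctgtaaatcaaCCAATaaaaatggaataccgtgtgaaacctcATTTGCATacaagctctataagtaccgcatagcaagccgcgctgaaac
H2bc3, chr13:23746584-23746733, + strand: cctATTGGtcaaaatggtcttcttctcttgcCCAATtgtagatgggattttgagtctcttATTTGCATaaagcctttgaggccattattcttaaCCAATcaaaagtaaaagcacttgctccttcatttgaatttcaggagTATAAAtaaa
H2bc8, chr13:23571250-23571399, + strand: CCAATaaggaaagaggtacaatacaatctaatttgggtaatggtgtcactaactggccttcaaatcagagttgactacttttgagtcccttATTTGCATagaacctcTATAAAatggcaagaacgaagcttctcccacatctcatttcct
H2bc14, chr13:21721894-21722043, + strand: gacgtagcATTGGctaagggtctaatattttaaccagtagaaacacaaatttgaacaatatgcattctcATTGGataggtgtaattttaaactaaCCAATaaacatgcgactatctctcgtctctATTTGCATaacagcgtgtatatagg
H2bc9, chr13:23543445-23543594, - strand: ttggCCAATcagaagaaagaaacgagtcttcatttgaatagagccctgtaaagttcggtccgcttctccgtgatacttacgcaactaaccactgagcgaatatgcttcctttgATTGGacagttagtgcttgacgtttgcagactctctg
H4c4, chr13:23581418-23581567, + strand: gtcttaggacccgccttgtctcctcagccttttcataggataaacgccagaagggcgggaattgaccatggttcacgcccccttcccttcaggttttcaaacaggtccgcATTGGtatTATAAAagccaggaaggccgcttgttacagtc
H4c6, chr13:23551669-23551818, - strand: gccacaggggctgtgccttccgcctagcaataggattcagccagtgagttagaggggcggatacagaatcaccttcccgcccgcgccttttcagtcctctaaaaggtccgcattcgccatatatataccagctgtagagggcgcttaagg
In the 4 octamer promoters the motif began 25 bases before the start in H2bc14, 48 bases in H2bc18, 59 bases in H2bc8 and 90 bases in H2bc3. H2bc8 shares its upstream region with the divergent H2ac8, with 179 bases between their starts, so 1 octamer lies before both genes; H2bc1 and H2ac1, with 280 bases between their starts, likewise share 1.

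**Figure D1:**
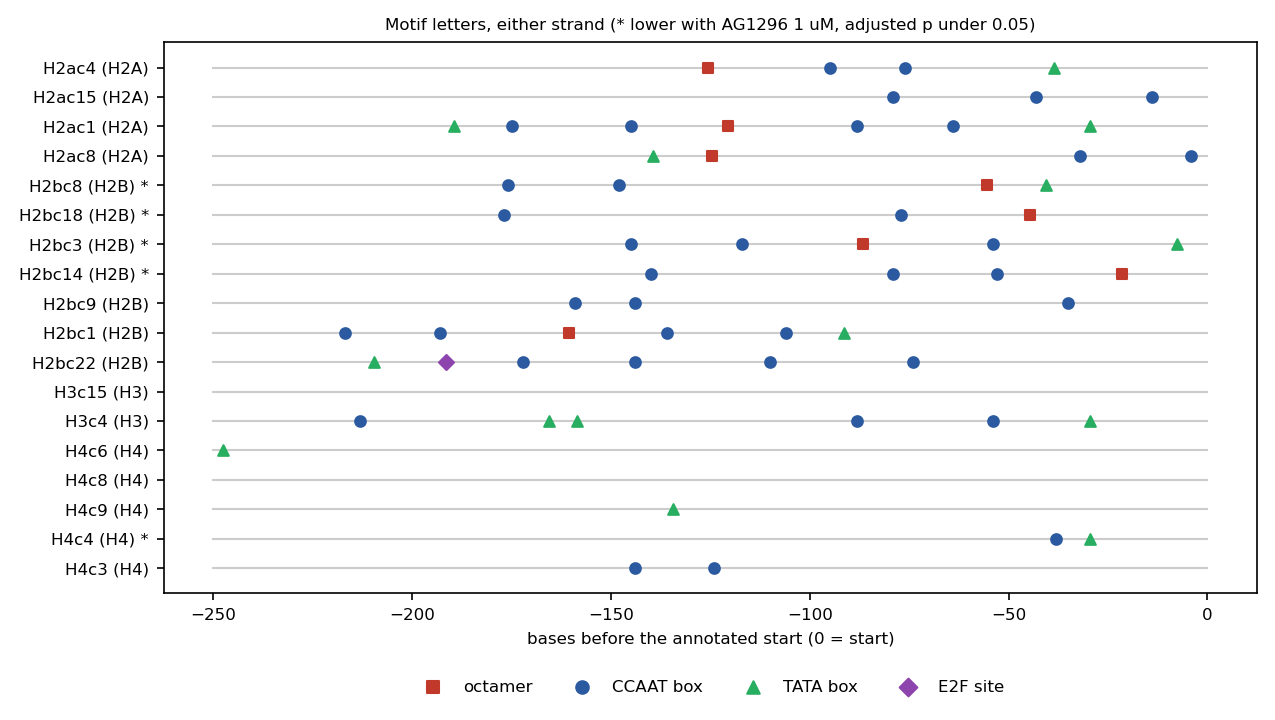
Positions of octamer, CCAAT box, TATA box and E2F-type letters in the 250 bases before the annotated start of the 18 single-symbol members with a RefSeq promoter, ordered by histone class and by the log2 difference between AG1296 1 uM and untreated. Octamers appear in H2A and H2B promoters and in no H3 or H4 promoter; asterisks mark the 5 genes shown here that fell with AG1296 at 1 uM.

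Values are deposited log2 expression, so a difference of 1 is a doubling, and no level of one probe set is set against that of another. Array medians over all probe sets were 4.02 to 4.13, and correlations between arrays of a group were 0.993 to 0.996. Of the single-symbol members, 15 lay above the median of every array, 4 (H2bc21, H2bc1, H2ac8 and H3c7) lay below it on every array, and 3 (H3c15, H2bc22 and H4c8) lay below it on some; detection calls were not used here. All 7 fibroblast markers lay above the median on every array, while 4 or 5 of 5 endothelial and 4 or 5 of 5 leukocyte markers lay below it. The mean of the fibroblast markers ranged over 9.78 to 9.87 with PDGF-AB, 9.90 to 9.95 with AG1296 at 10 uM, 9.95 to 10.00 at 1 uM and 9.74 to 9.81 in untreated cells. Of these 7 markers, Pdgfra, which marked the sorted cells, fell at 1 uM against untreated (-0.91 ± 0.09, adjusted p = 8.29e-05), while Dcn (1.70 ± 0.10) and Col1a1 (0.51 ± 0.10) rose and 4 were not called. Among the endothelial markers Tek, below the array median on 10 of 12 arrays, rose at 1 uM against untreated (0.73 ± 0.10, adjusted p = 0.0014). Of the other lists, 3 of 5 cardiomyocyte and 3 to 5 of 6 pericyte and smooth muscle markers lay below the median. Between PDGF-AB and AG1296 1 uM, Tnnt2 (0.38 ± 0.09), Cspg4 (0.66 ± 0.17), Notch3 (0.54 ± 0.11), Pdgfra (1.04 ± 0.09) and Thy1 (0.41 ± 0.10) were higher with PDGF-AB, and Dcn (-2.16 ± 0.10) and Tek (-0.49 ± 0.10) lower. The part of these marker differences in the histone values was not tested. In such bulk samples fewer cells in S phase and less histone RNA per cell cannot be told apart.

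The 3 comparisons with untreated cells share the same untreated arrays, and the treated arrays recur likewise in the comparisons among treatments. Against untreated cells, calls among the members occurred at AG1296 1 uM. Of the 22 single-symbol members 7 fell and 0 rose (adjusted p under 0.05), against 1.02% of all probe sets lower and 1.21% higher. The 7 were 5 H2B genes (H2bc8, H2bc18, H2bc3, H2bc21 and H2bc14) and 2 H4 genes (H4c4 and H4c14). The log2 difference was negative for 21 of 22, against 53.1% of all probe sets. Its median was -0.40 over the members and -0.01 over all probe sets. In 14 of 22 the 3 treated arrays all lay below the 3 untreated ones, against 9.53% of all probe sets.

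**Figure D2:**
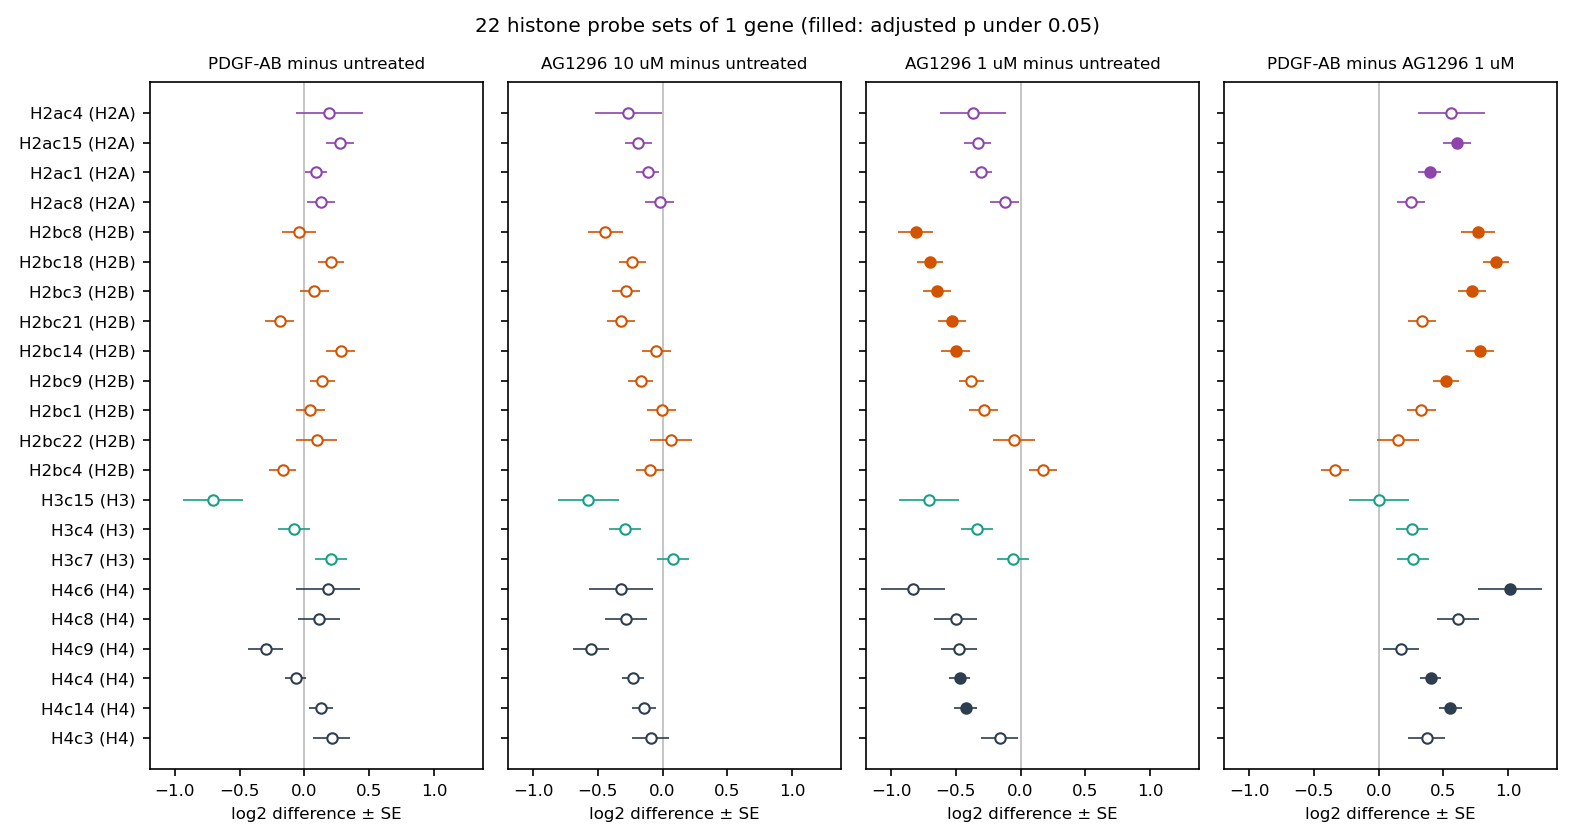
Log2 differences (horizontal, ± SE) of the 22 single-symbol members, grouped by class, for PDGF-AB against untreated, AG1296 10 uM against untreated, AG1296 1 uM against untreated and PDGF-AB against AG1296 1 uM; filled points have an adjusted p under 0.05. At 1 uM 21 of 22 points lie left of 0 and 7 are filled, while no point is filled for PDGF-AB or AG1296 10 uM against untreated.

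H2bc18, an H2B gene of the chromosome 3 cluster, had log2 values of 5.34, 5.46 and 5.42 with AG1296 at 1 uM, against 6.22, 5.99 and 6.10 in untreated cells. The groups were separated by a wide gap, and the difference was -0.70 ± 0.10 (SE, n = 3 each, adjusted p = 0.00234), or 1.62-fold lower. H2bc8 had 4.57, 4.76 and 4.42 at 1 uM, against 5.55, 5.42 and 5.22 in untreated cells. Every treated array was again below every untreated one, and the level was 1.75-fold lower (-0.81 ± 0.13, adjusted p = 0.00497). H2bc3 had 5.22, 5.54 and 5.26 at 1 uM, against 5.89, 6.14 and 5.92 in untreated cells. Its second treated array was the highest of the 3 and still below all untreated ones, with a difference of -0.64 ± 0.11 (adjusted p = 0.00597). H2bc14 had 7.05, 7.25 and 7.38 at 1 uM, against 7.66, 7.81 and 7.72 in untreated cells. The groups did not overlap, and the difference was -0.50 ± 0.11 (adjusted p = 0.0341). H2bc21 had 2.71, 2.55 and 2.60 at 1 uM, against 3.28, 3.17 and 3.00 in untreated cells. It also separated the groups (-0.53 ± 0.11, adjusted p = 0.0226), but every one of its 12 values lies below the array median.

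Of the H4 genes, H4c4 had 9.27, 9.22 and 9.25 with AG1296 at 1 uM, against 9.71, 9.75 and 9.69 in untreated cells. The arrays within each group lay close together and far from the other group, and the difference was -0.47 ± 0.08 (adjusted p = 0.00811). H4c14, the H4 gene of chromosome 3, had 8.16, 8.25 and 8.05 at 1 uM, against 8.63, 8.54 and 8.55 in untreated cells, again without overlap. Its difference was -0.43 ± 0.09 (adjusted p = 0.0287). H4c6 had 7.05, 6.92 and 6.23 at 1 uM, against 7.35, 7.89 and 7.45 in untreated cells. This was the most negative difference of any single-symbol member, -0.83 ± 0.25. It drew on 1 treated array, replicate 3, that stood far below the others, and was -0.58 without that array. The test was not passed (adjusted p = 0.13), nor in any fit that left out 1 array (adjusted p 0.0813 to 0.335). H4c9 had 5.61, 5.97 and 5.74 at 1 uM, against 6.25, 6.54 and 5.95 in untreated cells, so the groups overlapped at 1 array (-0.47 ± 0.14, adjusted p = 0.121).

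None of the 4 H2A and 3 H3 single-symbol members was called at 1 uM by limma, although 2 in each class had an unadjusted p under 0.05. Over all probe sets 3498 of 28853 had such a p. H2ac15 had 6.70, 6.80 and 6.76 with AG1296 at 1 uM, against 7.14, 7.05 and 7.08 in untreated cells, which did not overlap (-0.33 ± 0.11, adjusted p = 0.169). H2ac1 had 4.65, 4.67 and 4.61 at 1 uM, against 4.96, 4.89 and 4.99 in untreated cells, also apart (-0.31 ± 0.09, adjusted p = 0.104). H2ac4 was the least even of the class, with 5.21, 5.89 and 4.60 at 1 uM and 5.22, 5.74 and 5.84 in untreated cells (-0.37 ± 0.26, adjusted p = 0.666). H3c4 had 4.81, 4.90 and 4.54 at 1 uM, against 5.31, 4.96 and 5.00 in untreated cells (-0.34 ± 0.12, adjusted p = 0.25). The other H3 genes, H3c15 (-0.71 ± 0.23, adjusted p = 0.193) and H3c7 (-0.06 ± 0.12, adjusted p = 0.926), had most or all values below the array median. The exception in sign was H2bc4, an H2B gene with 9.04, 9.29 and 9.11 at 1 uM and 8.99, 9.10 and 8.83 in untreated cells. Its groups overlapped and its difference of 0.17 ± 0.11 missed the threshold (adjusted p = 0.607).

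The count of 7 was 4 without AG1296 1 uM replicate 1, 4 without untreated replicate 1 and 4 without untreated replicate 2. H2bc18, H2bc8, H2bc3 and H4c4 stayed under the threshold whichever array was left out, while the adjusted p reached 0.161 for H2bc14, 0.124 for H4c14 and 0.113 for H2bc21. Of the 7 H2B genes with a RefSeq promoter, 4 of the 5 with the octamer fell and 0 of the 2 without it were called. The 2 were H2bc9 and H2bc22. At AG1296 1 uM H2bc9 was lower than untreated without overlap but missed the threshold (-0.38 ± 0.10, adjusted p = 0.0695). Its adjusted p was 0.0138 to 0.112 under the other settings. H2bc22 (-0.05 ± 0.16, adjusted p = 0.958) lay below the array median on 8 arrays. H2bc21, which also fell, had no RefSeq promoter at hand and is not counted here. Of the 4 H2A genes, 0 of the 3 with the octamer and 0 of the 1 without it were called, and of the 5 H4 genes, which have none, 1 fell (H4c4). The relation between octamer and call was not tested.

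**Figure D3:**
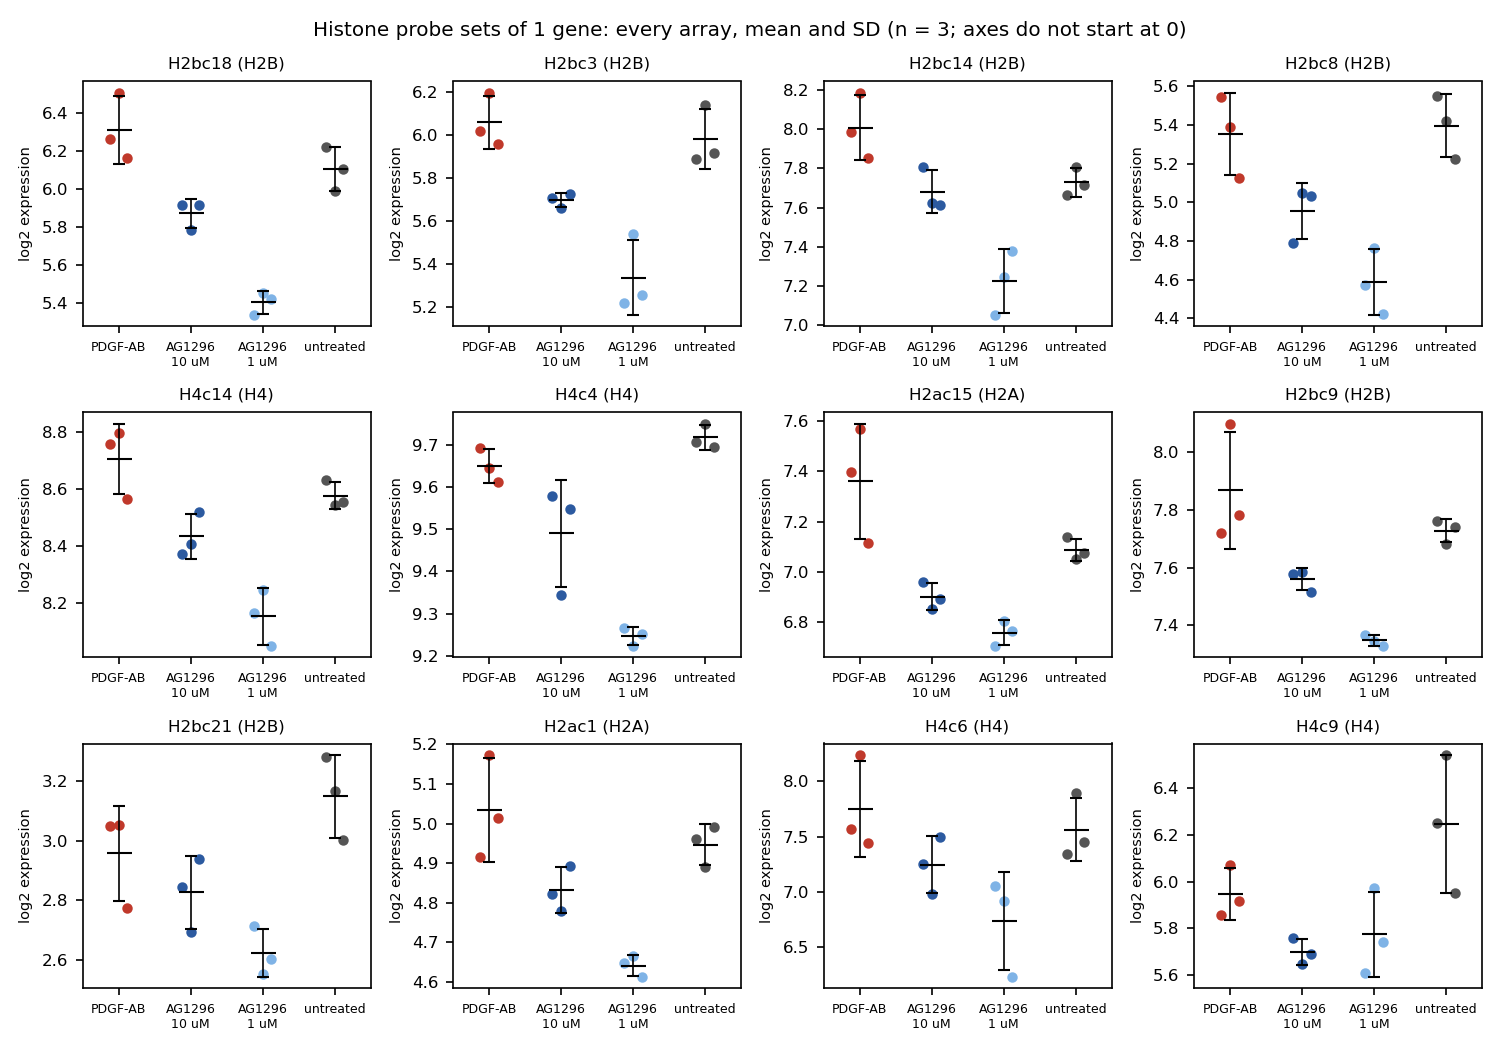
Log2 expression on every array (points) with the mean and SD of 3 arrays (bars) for the 12 single-symbol members given in full, by group from left to right PDGF-AB, AG1296 10 uM, AG1296 1 uM and untreated; each panel has its own axis. The AG1296 1 uM points are the lowest in 11 of 12 panels by their mean, the exception being H4c9.

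The 26 probe sets with several symbols were also lower. They list many of the same genes as one another, and 18 of the single-symbol genes are listed on them too. They were therefore not taken as independent measurements. Among the 26, 2 pairs hold identical values, and shared probes were not examined. At AG1296 1 uM 21 of 26 fell and 0 rose, against 1.02% of all probe sets lower, with a median log2 difference of -0.45. In 25 of 26 the treated arrays all lay below the untreated ones, against 9.53% of all probe sets. All 7 H2B sets fell (median -0.56), as did 5 of 6 H4 sets (median -0.62) and 9 of 10 H3 sets (median -0.44). Neither of the 2 H2A sets was called (-0.37 and -0.31, adjusted p = 0.106 and 0.169).

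The H4 set with the smallest F-test p lists 11 H4 genes and had 9.88, 9.84 and 9.90 with AG1296 at 1 uM, against 10.54, 10.47 and 10.48 in untreated cells. The 3 arrays of each group lay close together, and the difference was -0.62 ± 0.09 (adjusted p = 0.00151). The 4 other H4 sets with the same 11 genes, 2 of them identical, ran from -0.65 to -0.60. An H2B set listing 15 symbols had 9.32, 9.52 and 9.28 at 1 uM, against 9.99, 10.00 and 9.88 in untreated cells (-0.58 ± 0.09, adjusted p = 0.00335). The 10 H3 sets each list 12 symbols, and their median per array was 11.19, 11.04 and 11.25 at 1 uM, against 11.68, 11.51 and 11.58 in untreated cells. The 10th H3 set missed the threshold at an adjusted p of 0.051. The 2 remaining sets without a call were H2bc6;H1f4 (-0.32 ± 0.09, adjusted p = 0.109) and H4c17;H4c11 (-0.05 ± 0.15, adjusted p = 0.96). The count of 21 was 9 to 23 when single arrays were left out, with 9, 12 and 12 without AG1296 1 uM replicates 1, 2 and 3 and 10, 11 and 12 without untreated replicates 1, 2 and 3. It was 14 after quantile normalization and 11 when only the 6 arrays compared were fitted.

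**Figure D4:**
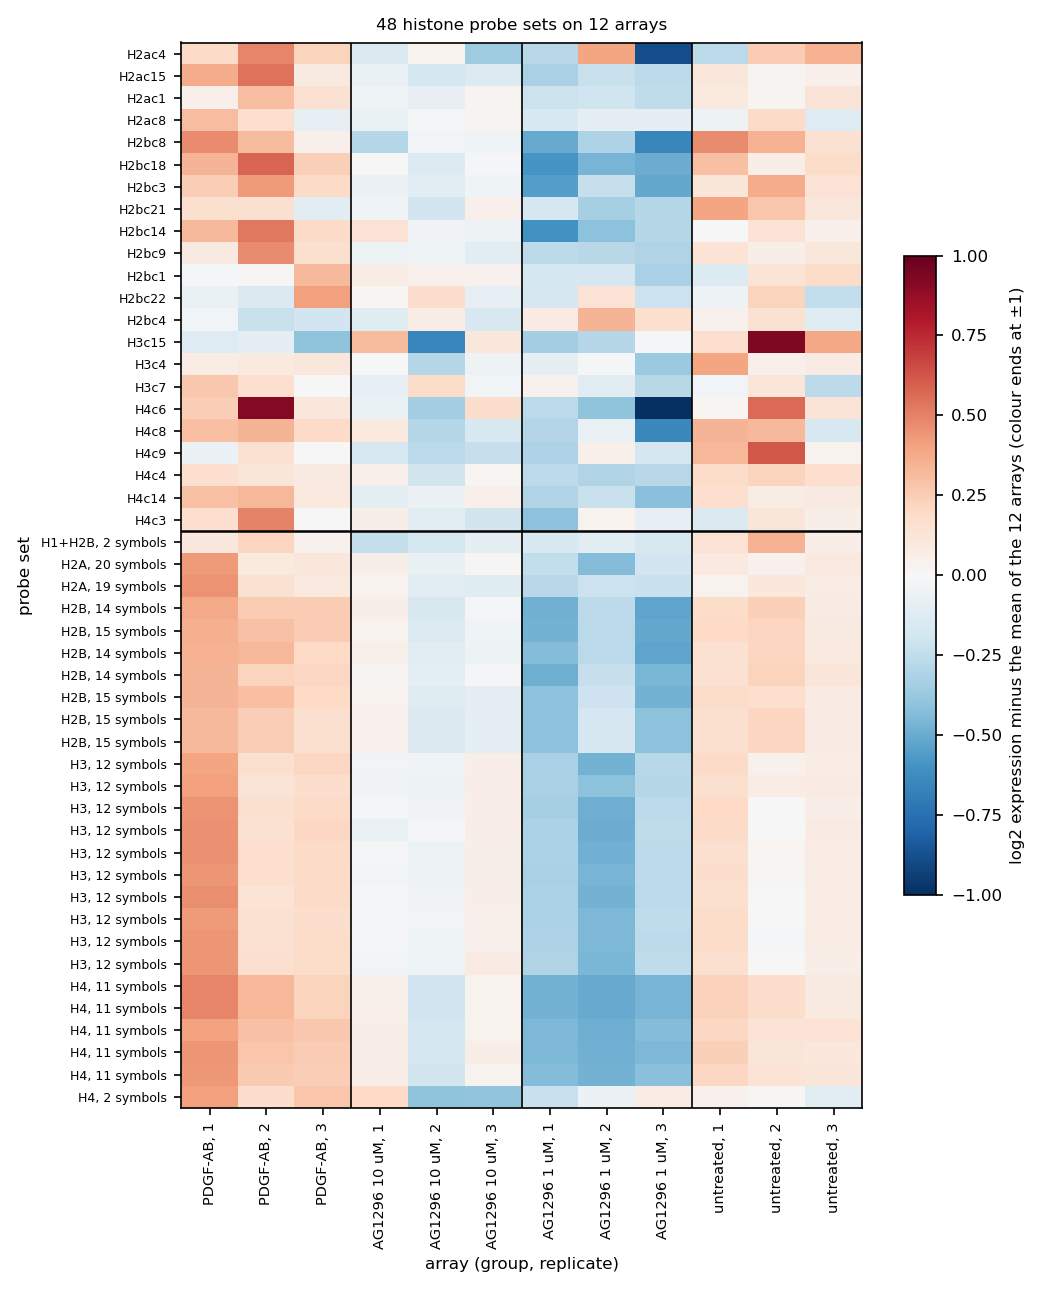
All 48 histone probe sets (vertical, single-symbol members above the line, several-symbol ones below, named by class and number of symbols) on the 12 arrays (horizontal), coloured by log2 expression minus the set's mean over the arrays. The 3 AG1296 1 uM columns are blue for most sets and the PDGF-AB columns red, and H2bc4 runs the other way.

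At AG1296 10 uM no member was called by limma: 0 of 22 single-symbol and 0 of 26 several-symbol sets, against 1.21% of all probe sets. An unadjusted p under 0.05 was seen in 8 and 6 of them, against 2791 of all 28853 probe sets. The median difference from untreated cells was -0.21 over the single-symbol members, of which 20 of 22 were negative, and -0.17 over the several-symbol sets, or -0.098 without AG1296 10 uM replicate 2. Of the several-symbol sets 26 of 26 were negative. Over all probe sets 48.6% were negative. In 10 of 22 single-symbol members and 15 of 26 several-symbol sets the 10 uM arrays all lay below the untreated ones, against 7.62% of all probe sets. H2bc18 had 5.92, 5.78 and 5.91 at 10 uM, against 6.22, 5.99 and 6.10 in untreated cells. Its groups were adjacent but separate, and its difference was -0.23 ± 0.10 (adjusted p = 0.482). H2bc8 had 4.79, 5.05 and 5.03 at 10 uM, against 5.55, 5.42 and 5.22 in untreated cells (-0.44 ± 0.13, adjusted p = 0.198). H4c9 had the smallest adjusted p of the comparison among members, with 5.76, 5.65 and 5.69 at 10 uM against 6.25, 6.54 and 5.95 in untreated cells (-0.55 ± 0.14, adjusted p = 0.0968). Without untreated replicate 3, the lowest untreated array of H4c9, its adjusted p was 0.0346. This was the smallest of the fits that left out 1 array, whose adjusted p for H4c9 reached 0.32.

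The direct comparison of the doses gave 0 calls among the 22 and 0 among the 26 with limma, against 0.187% of all probe sets. An unadjusted p under 0.05 was seen in 10 of 22 and 23 of 26, against 2379 of all 28853 probe sets. With intensity trend and robust moderation 2 of 22 and 19 of 26 were called higher at 10 uM. With dim probe sets left out it was 1 of the 17 kept and 5 of 26. Over all probe sets fitted, these settings called 200 and 140 in either direction, against 54 in the main fit. The members were nonetheless mostly higher at 10 uM than at 1 uM, with a median difference of 0.20 over the single-symbol members and 0.35 over the several-symbol sets, against 0.02 over all probe sets. The arrays did not overlap, with 10 uM higher, in 11 of 22 and 24 of 26, against 8.36% of all. H2bc18 had 5.92, 5.78 and 5.91 at 10 uM and 5.34, 5.46 and 5.42 at 1 uM, a gap wider than either group's range (0.47 ± 0.10, adjusted p = 0.122). H2bc14 had 7.81, 7.63 and 7.61 at 10 uM and 7.05, 7.25 and 7.38 at 1 uM, also apart (0.46 ± 0.11, adjusted p = 0.18). H2bc4 ran the other way, with 8.83, 9.02 and 8.79 at 10 uM and 9.04, 9.29 and 9.11 at 1 uM (-0.27 ± 0.11, adjusted p = 0.526).

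The comparison of PDGF-AB with AG1296 at 1 uM, the agonist with the low inhibitor dose, had the most calls among the members of the 6 comparisons. Of the 22 single-symbol members 10 were higher with PDGF-AB and 0 lower, against 1.8% of all probe sets higher and 2.03% lower, and the median difference was 0.40 over the members and 0.03 over all. The arrays did not overlap, with PDGF-AB higher, in 15 of 22, against 10.7% of all. They did not overlap with PDGF-AB lower in 1 of 22, against 2612 of all 28853 probe sets. That 1 was H2bc4, with 8.93, 8.73 and 8.76 with PDGF-AB, against 9.04, 9.29 and 9.11 at 1 uM (-0.34 ± 0.11, adjusted p = 0.128). With intensity trend and robust moderation H2bc4 was called lower. The 10 comprised 5 H2B genes, 3 H4 genes and 2 H2A genes. Of the several-symbol sets 24 of 26 were higher with PDGF-AB, with a median of 0.62.

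H2bc18 had 6.26, 6.51 and 6.16 with PDGF-AB, against 5.34, 5.46 and 5.42 with AG1296 at 1 uM, a difference of 0.91 ± 0.10 (adjusted p = 0.00015), or 1.87-fold. H2bc14 had 7.99, 8.19 and 7.85 with PDGF-AB, against 7.05, 7.25 and 7.38 at 1 uM (0.78 ± 0.11, adjusted p = 0.00103). Both separated the groups by more than the spread within them. H4c6 had 7.57, 8.24 and 7.44 with PDGF-AB, against 7.05, 6.92 and 6.23 at 1 uM, and was 2.02-fold higher (1.01 ± 0.25, adjusted p = 0.0376). Each of its groups held 1 array far from the other 2, replicate 2 with PDGF-AB and replicate 3 at 1 uM. H2ac15 had 7.40, 7.57 and 7.12 with PDGF-AB, against 6.70, 6.80 and 6.76 at 1 uM (0.61 ± 0.11, adjusted p = 0.00463). H2bc9 had 7.72, 8.10 and 7.78 with PDGF-AB, against 7.37, 7.35 and 7.33 at 1 uM (0.52 ± 0.10, adjusted p = 0.0077). The inhibitor arrays of H2ac15 and H2bc9 were nearly level while the second PDGF-AB array stood above the others.

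The 5 further members higher with PDGF-AB than with AG1296 at 1 uM were H2bc8 (0.77 ± 0.13), H2bc3 (0.72 ± 0.11), H4c14 (0.55 ± 0.09), H4c4 (0.40 ± 0.08) and H2ac1 (0.39 ± 0.09). H2ac1 had 4.91, 5.17 and 5.01 with PDGF-AB, against 4.65, 4.67 and 4.61 at 1 uM. Its groups did not overlap. The other 7 calls stood whichever array was left out; the adjusted p reached 0.0586 for H4c4 without AG1296 1 uM replicate 2, and at most 0.079 for H2ac1 and 0.127 for H4c6. The several-symbol count was 23 to 24 when single arrays were left out.

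Between PDGF-AB and AG1296 at 10 uM 2 of 22 single-symbol members were higher with PDGF-AB and 0 lower, against 0.929% of all probe sets higher and 1.23% lower. Of the several-symbol sets 0 of 26 were called by limma, though 25 had an unadjusted p under 0.05, against 3487 of all 28853 probe sets. The count of 0 among the 26 was 17 with intensity trend and robust moderation, 9 with dim probe sets left out and 2 after quantile normalization. Over all probe sets fitted, these settings called 1005, 1037 and 671 in either direction, against 624 in the main fit. H2ac15 had 7.40, 7.57 and 7.12 with PDGF-AB, against 6.96, 6.85 and 6.89 with AG1296 at 10 uM (0.46 ± 0.11, adjusted p = 0.0406). H2bc18 had 6.26, 6.51 and 6.16 with PDGF-AB, against 5.92, 5.78 and 5.91 at 10 uM (0.44 ± 0.10, adjusted p = 0.046). Neither pair of groups overlapped, but both calls were lost in 11 of the 12 fits that left out 1 array, with the adjusted p reaching 0.154 for H2ac15 and 0.182 for H2bc18. They stood in the fit without PDGF-AB replicate 3. Both were also lost with each array centred on its median (adjusted p = 0.0622 for each) and when only the 6 arrays compared were fitted (adjusted p = 0.179 for H2bc18 and 0.206 for H2ac15). Neither call stood with the replicate block. The arrays did not overlap, with PDGF-AB higher, in 13 of 22 and 25 of 26, against 8.16% of all probe sets. The median difference was 0.26 over the single-symbol members and 0.30 over the several-symbol sets, against 0.01 over all.

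PDGF-AB against untreated cells gave no call by limma among the 22 or the 26, against 0.177% of all probe sets. An unadjusted p under 0.05 was seen in 4 of 22 and 0 of 26, against 2147 of all 28853 probe sets. The median difference was 0.10 over the single-symbol members, with 15 of 22 positive, and 0.16 over the several-symbol sets, with 25 of 26 positive. Over all probe sets 15528 of 28853 were positive. Without PDGF-AB replicate 2 the median over the single-symbol members was 0.048, and without PDGF-AB replicate 1 that over the several-symbol sets was 0.087. In 9 of 26 several-symbol sets the PDGF-AB arrays all lay above the untreated ones, and in 0 of 26 below. H2bc14 was the 1 single-symbol member whose PDGF-AB arrays (7.99, 8.19 and 7.85) all lay above the untreated ones (7.66, 7.81 and 7.72), where 6.5% of all probe sets did so (0.28 ± 0.11, adjusted p = 0.596). H4c4 and the dim H3c15 were the 2 whose PDGF-AB arrays all lay below, where 5.75% of all did so. H4c4 had 9.69, 9.64 and 9.61 with PDGF-AB, against 9.71, 9.75 and 9.69 in untreated cells (-0.07 ± 0.08, adjusted p = 0.904).

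Set side by side, the group means followed PDGF-AB, untreated, AG1296 10 uM and AG1296 1 uM from high to low in 13 of 22 single-symbol members and 24 of 26 several-symbol sets, against 7.47% of all probe sets. AG1296 at 1 uM had the lowest mean in 20 of 22 and 24 of 26, against 31.6% of all probe sets, and PDGF-AB the highest in 15 of 22 and 25 of 26, against 31.2%. No pair of neighbours in this order passed the test in any member (PDGF-AB and untreated, AG1296 10 uM and untreated, AG1296 10 uM and 1 uM). The F test over the 4 groups called 8 of 22 single-symbol members and 22 of 26 several-symbol sets, against 3.61% of all probe sets. The several-symbol count was 13 without AG1296 1 uM replicate 1 and 13 without replicate 2, and the single-symbol count was 4 without AG1296 1 uM replicate 1 and 4 without replicate 3. The 8 were H2bc18, H2bc3, H2bc14, H2bc8, H4c14, H4c4, H2ac15 and H2bc9, with adjusted p from 0.00079 to 0.0319.

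The genes that process, chaperone or accompany these histones were counted next. Of 16 genes of histone mRNA processing, of 16 histone chaperones and of 9 variant histones, many of which are also made outside S phase, 0 were called in any of the 6 comparisons by limma. At AG1296 1 uM their median differences were -0.07, 0.03 and -0.01. Of them 3, 3 and 1 had an unadjusted p under 0.05, against 3498 of all 28853 probe sets. Over all probe sets 51 to 1106 of 28853 were called, by comparison, so lists this small would hold few calls or none. Slbp, which binds the stem-loop, had 7.07, 7.04 and 7.23 at 1 uM, against 7.14, 7.28 and 7.17 in untreated cells (-0.09 ± 0.14, adjusted p = 0.891). Npat, the activator of the clusters, had 5.08, 5.21 and 4.92 at 1 uM, against 4.95, 4.99 and 4.91 in untreated cells (0.12 ± 0.20, adjusted p = 0.9). Both sets of values overlapped. The variant genes H2az1 (-0.06 ± 0.08) and H2ax (0.14 ± 0.11) were not called either.

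Of 36 DNA replication genes, 0 were called by limma in AG1296 1 uM against untreated, with a median of -0.05. An unadjusted p under 0.05 was seen in 6, against 3498 of all 28853 probe sets. In that comparison 1.02% of all probe sets were called lower and 1.21% higher. These shares also stand beside the mitosis and G1/S lists below. Between PDGF-AB and AG1296 1 uM the replication list had 26 of 36 positive differences, against 16436 of all 28853 probe sets. Its median was 0.11, against 0.40 over the single-symbol histones and 0.03 over all probe sets. In 11 of 36 the PDGF-AB arrays all lay above the AG1296 1 uM arrays, against 10.7% of all. An unadjusted p under 0.05 was seen in 12 of 36, against 4298 of all 28853 probe sets. None was called higher there by limma, and 1 was called lower, Rrm1, a subunit of ribonucleotide reductase (-0.49 ± 0.09, adjusted p = 0.00622). Over all probe sets 1.8% were called higher there and 2.03% lower. Of 28 mitosis genes 0 were called by limma at AG1296 1 uM against untreated. An unadjusted p under 0.05 was seen there in 3, against 3498 of all 28853 probe sets. Between PDGF-AB and AG1296 1 uM 1 mitosis gene was lower, Anln, which encodes anillin (-0.34 ± 0.09, adjusted p = 0.0482). Of 16 G1/S genes 1 fell at 1 uM, the cyclin D1 gene Ccnd1, with 10.57, 10.53 and 10.58 at 1 uM against 11.23, 11.15 and 11.18 in untreated cells (-0.63 ± 0.08, adjusted p = 0.000495). Ccnd1 did not overlap between these groups and was 0.84 ± 0.08 higher with PDGF-AB than with AG1296 at 1 uM (adjusted p = 2e-05). It was also 0.53 higher at 10 uM than at 1 uM (adjusted p = 0.0149). Of the same lists, 1 mitosis gene was higher at 10 uM than in untreated cells (adjusted p = 0.0295). In addition, 1 replication gene was lower with PDGF-AB than with AG1296 at 10 uM (adjusted p = 0.0359).

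The linker histones, whose current symbols fall outside the naming rule, were added after the names and values had been seen. H1f5 had 9.00, 9.04 and 8.94 with AG1296 at 1 uM, against 9.29, 9.50 and 9.37 in untreated cells, and fell without overlap (-0.39 ± 0.09, adjusted p = 0.0356). H1f3 also fell (-0.80 ± 0.13, adjusted p = 0.00558), with 11 of its 12 values below the array median. The 3 others, H1f1 (-0.26), H1f2 (-0.22) and H1f6 (-0.47), were not called at 1 uM. At 10 uM against untreated all 5 differences were negative, against 48.6% of all probe sets, with a median of -0.29. There 2 fell, H1f3 (-0.77 ± 0.13, adjusted p = 0.0116) and H1f2 (-0.43 ± 0.09, adjusted p = 0.0423). Over all probe sets 1.02% were called lower at 1 uM and 0.454% at 10 uM. With PDGF-AB 1 of 5 was higher than at 1 uM (adjusted p = 0.00536), against 1.8% of all probe sets. Likewise 1 of 5 was higher than at 10 uM (adjusted p = 0.0346), against 0.929% of all probe sets.

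**Figure D5:**
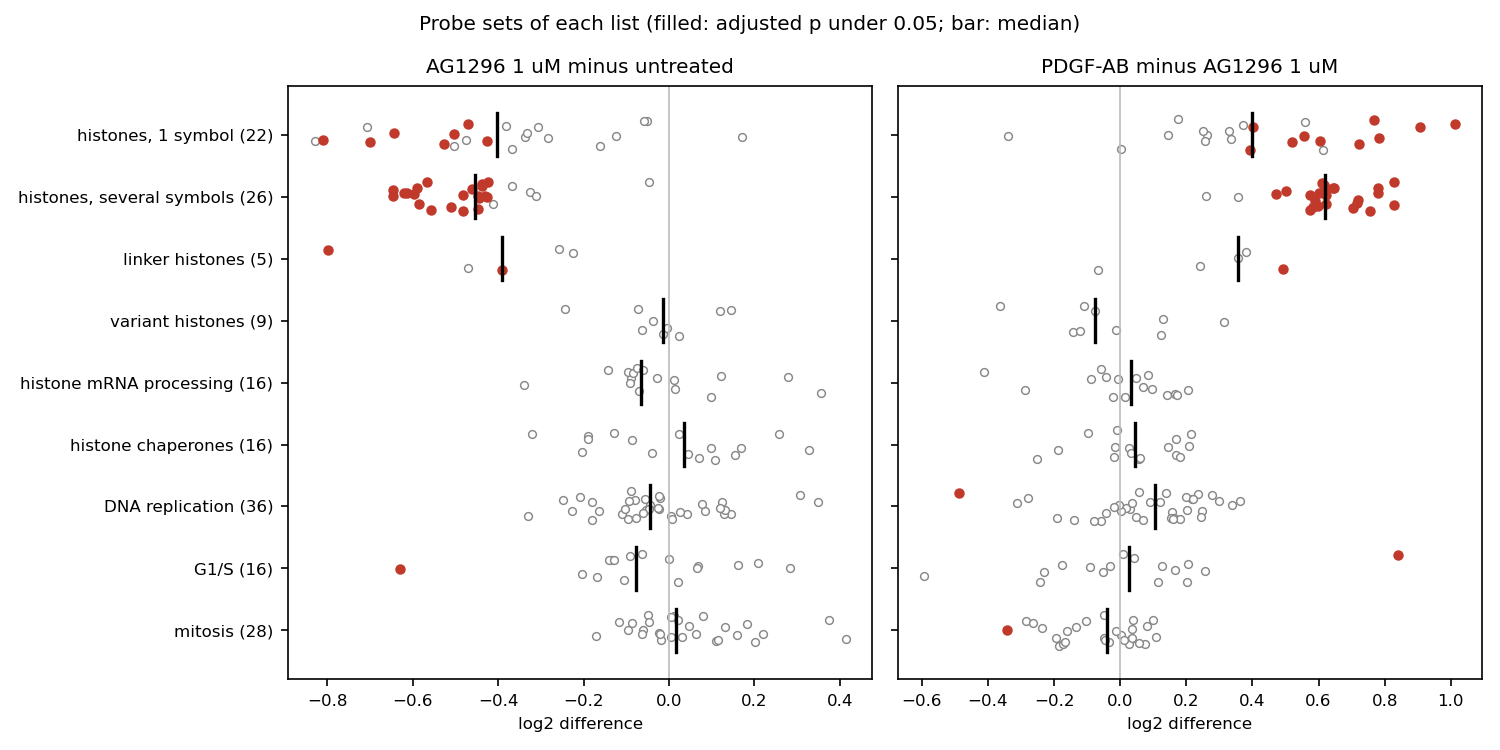
Log2 differences (horizontal) for AG1296 1 uM against untreated and for PDGF-AB against AG1296 1 uM, with 1 point per probe set in each list; filled points have an adjusted p under 0.05 and bars mark medians. The medians of the single-symbol and several-symbol histones are -0.40 and -0.45 on the left and 0.40 and 0.62 on the right, while those of the processing, chaperone, variant, replication, G1/S and mitosis lists lie between -0.08 and 0.11.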

How the data were processed

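RNA of 12 arrays was labelled with the Affymetrix WT kit, per the labels' protocols. The authors deposited 1 log2 value for each probe set and array. The submitters' processing notes name RMA, which corrects background, normalizes across arrays and summarises probes, and limma, with versions and settings not given in the sources used here. Base 2 was inferred from how high and low they run, and probe names come from GEO's platform table. Values were used as deposited. The 28853 probe sets entered 1 limma fit (limma 3.58.1, R 4.3.3) with a mean per group, 8 residual degrees of freedom and empirical Bayes moderation. Tests were two-sided, and calls were made at 0.05 after Benjamini-Hochberg adjustment across every probe set, separately for each comparison. Precision is limited by having 3 arrays a group.

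The rule for naming gave in full the single-symbol members called anywhere, filled to 12 by F-test p, the 3 highest of each class, up to 6 several-symbol sets, and list genes by F-test p with Slbp, Npat, H2ax and H2az1. Members, lists and tests were chosen with earlier results of these data known. The fit was tested on simulated data. No scan batches are given in the labels used here, and 0 further value columns were set aside. Alternatives were other normalization, centring, filtering and moderation, 1 probe set per gene, the 6 arrays compared, a replicate block and leaving out each array. Sequences are RefSeq promoters of GRCm38.p6.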

Additional observations from a re-analysis of the deposited data

How the results depend on the processing

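Counts are of the 22 single-symbol members unless the 26 several-symbol sets are named. The settings also changed the calls over all probe sets. Between the doses these were 54 in the main fit, 140 without dim probe sets and 200 with trend and robust moderation. In the same order they were 350, 627 and 633 for AG1296 10 uM against untreated. For PDGF-AB they were 1106, 1471 and 1433 against AG1296 1 uM, and 624, 1037 and 1005 against 10 uM. At AG1296 1 uM against untreated the count of 7, all lower, was 5 to 8 under the other settings and 4 to 8 when single arrays were left out. At AG1296 10 uM the count of 0 was 1 with dim probe sets left out and 1 with intensity trend and robust moderation, H4c9 each time, and 0 to 1 without single arrays. Between the doses the count of 0 was 1 without dim probe sets (H2bc18) and 2 with trend and robust moderation (H2bc18 and H2bc14); among the 26 it was 5 and 19. PDGF-AB against AG1296 1 uM gave 10, 5 when only the 6 arrays compared were fitted, and 8 to 10 without single arrays. With trend and robust moderation it gave 10 higher and 1 lower, H2bc4. PDGF-AB against AG1296 10 uM gave 2, but 0 with each array centred on its median, 0 with the 6 arrays compared, 0 with the replicate block, and 0 to 2 without single arrays; among the 26 the count of 0 was 9 without dim probe sets, 17 with trend and robust moderation and 2 after quantile normalization. The F-test count of 8 was 4 to 8 without single arrays, with 4 without AG1296 1 uM replicate 1 and 4 without replicate 3. PDGF-AB against untreated stayed at 0 in all of these settings. Deviations of same-numbered arrays had correlations of -0.01 to 0.34 (median 0.12, 9 of 18 pairs over 0.1), against a median of -0.04 and 2 of 36 over 0.1 for different numbers, and 8 of 12 arrays were closest to their own number. The 6 pairs of replicate 2 ran from 0.14 to 0.34. As not every pair passed 0.1 and the labels tie no arrays together, the arrays were fitted as unpaired, with these values as a hint of some shared deviation. With the replicate block the other counts were 7 at AG1296 1 uM against untreated and 11 between PDGF-AB and AG1296 1 uM. Medians of the single-symbol members moved by less than the replicate spread, 0.188, in the settings run. That spread exceeds the median itself for PDGF-AB against untreated. It is near the medians for AG1296 10 uM against untreated (-0.21) and between the doses (0.20). Within it, the median for PDGF-AB against AG1296 1 uM moved from 0.40 to 0.55 with dim probe sets left out. Among the members given in full and the 3 highest of each class, signs turned for uncalled differences only. In 2 the shift passed the SE of the main fit. H4c6, PDGF-AB against untreated, was -0.062 without PDGF-AB replicate 2, in a range of -0.062 to 0.35 without single arrays. H2ac4, AG1296 10 uM against 1 uM, was -0.21 without AG1296 1 uM replicate 3, in a range of -0.21 to 0.43. Smaller turns occurred in H2bc8 (PDGF-AB against untreated, -0.14 to 0.072), H4c9 (10 uM against 1 uM, -0.16 to 0.023), H3c4, H3c7 and H3c15. The cause of these changes was not tested. Signal limits H2bc21, H2bc1, H2ac8 and H3c7, which lay below the array median throughout.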
